A study of Rattus norvegicus with 39 samples.

Results

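The comparison set all adrenalectomized rats against intact rats in hippocampal CA1. It used 39 of the 39 arrays of the study, 29 from rats without adrenal glands and 10 from rats that kept them. The adrenalectomized arrays formed 3 groups, and the contrast took the mean of the 3 group means minus the Sham mean, so that each group counted equally whatever its size. The question was which transcripts stood on the same side of intact rats in all 3 groups, however corticosterone was given back. Genes were then taken up in 2 ways: 15 of 6118 tested probe sets passed in the mean contrast at an adjusted p under 0.05, and 27 had an unadjusted p under 0.05 and the same sign in each of the 3 groups. The 2 sets shared 6 probe sets and held 36 between them, of which 31 carried a gene symbol, for 29 genes.

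The animals were male Fischer 344 rats (spelled Fisher 344 in the sample labels), operated on at 14 to 15 months and killed at 18 months, between 8 and 10 AM. Sham rats (n = 10) had a sham operation and an inert pellet. The other rats were adrenalectomized, drank saline with 1% sucrose and received extra mash, fruit and 1.25 mg injections of corticosterone sulfate (as the labels name it) until implantation. They then carried a slow-release corticosterone pellet for 3 months, housed singly. LowCORT rats (n = 10) had a 25 mg pellet, IntermediateCORT rats (n = 9) a 200 mg pellet, and the injected group (n = 10) a 25 mg pellet followed, in the last week, by 5 mg of corticosterone per day on 4 days. Rats with the 25 mg pellet stayed on saline and sucrose. The supplements before implantation, the release of hormone from a pellet and the loss of every other adrenal hormone were shared by all 3 adrenalectomized groups and not by Sham, so their parts in a shared difference cannot be told apart. One adrenalectomized rat was taken out of the study because its health declined.

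Corticosterone, the main glucocorticoid of the rat, leaves the adrenal cortex in a daily rhythm and in pulses. It enters cells and binds the mineralocorticoid receptor, which has high affinity, and the glucocorticoid receptor, which fills when hormone is high, and CA1 pyramidal neurons carry both. The receptors then bind DNA and raise or lower target genes, among them kinases, inhibitors of inflammatory signalling and clock genes. Adrenalectomy also removes aldosterone and the adrenaline of the adrenal medulla.

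The arrays gave log2 expression values, in which a difference of 1 is a 2-fold change. Array medians lay between 7.27 and 7.33. Correlations between Sham arrays over probe sets ran from 0.977 to 0.996 and those between Sham and adrenalectomized arrays from 0.975 to 0.998, and 0 pairs of arrays were identical. The difference between the 3' and 5' probe sets of Gapdh, a sign of RNA or cDNA length, was 0.70 ± 0.22 in Sham (SD), 0.81 ± 0.24 (LowCORT), 0.63 ± 0.21 (IntermediateCORT) and 1.03 ± 0.60 (injected group); among the injected arrays, 3 stood above every Sham array. Of 17 genes listed as CA1 markers, 8 were on the array with a symbol of their own and 6 passed the filter on low values. Of 20 CA3 and CA2 markers 10 were measured and 9 passed, and of 18 dentate gyrus markers 7 were measured and 6 passed. In such bulk tissue, fewer cells of a type and less RNA per cell cannot be told apart.

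In the mean of the adrenalectomized groups, 4 probe sets fell and 11 rose, which is 0.245% of those tested (0.0654% lower and 0.180% higher). At an unadjusted p under 0.05 there were 431 (7.04%), 260 higher (4.25%) and 171 lower (2.80%). The 3 named genes that fell were Sgk1, a kinase induced by glucocorticoids, Errfi1, an inhibitor of EGF receptor signalling, and Nfkbia, which holds NF-kB in the cytoplasm. The 8 named genes that rose were Hk2, a hexokinase, Dbp, a clock-output transcription factor, Agrn, Car4, Ifitm3, S100a4, Csrp2 and Tnfrsf11b. Apart from Sgk1 the differences were small. They ran from 0.24 to 0.65 in size on the log2 scale, against a median size of 0.0415 over all probe sets tested and a median SE of 0.0589. The largest of the 3 p-values, adjusted over all probe sets as a test that all 3 groups moved, passed for 0 probe sets (0%), with a lowest adjusted p of 0.494 for Sgk1, while 27 had an unadjusted value under 0.05.

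Sgk1 encodes the serum- and glucocorticoid-regulated kinase, which acts on ion channels and transporters. Its log2 level in Sham ran from 8.45 to 10.25 with a median of 9.47. Sham subjects 1 and 2 had 9.82 and 10.25, and subjects 9 and 10 had 8.76 and 8.45. LowCORT ran from 7.73 to 8.27 (median 7.91), IntermediateCORT from 8.11 to 9.70 (median 8.54) and the injected group from 7.78 to 8.48 (median 7.96). Every LowCORT array lay below every Sham array, 9 of 10 injected arrays did, and the IntermediateCORT arrays overlapped Sham, with 3 of 9 below all Sham arrays. Over the 3 groups, 28 of 29 arrays were below the Sham mean and 22 below the lowest Sham array. The mean difference was -1.22 (SE 0.14, adjusted p = 1.01e-06, limma), a level 2.33-fold lower. Against Sham, the differences were -1.50 in LowCORT (adjusted p = 2.9e-07), -0.79 in IntermediateCORT (adjusted p = 0.165) and -1.38 in the injected group (adjusted p = 6.78e-06).

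The 3 adrenalectomized groups also differed among themselves in Sgk1 (moderated F test, adjusted p = 0.04). IntermediateCORT stood 0.71 above LowCORT (95% interval 0.35 to 1.07, adjusted p = 0.0213). The injected group differed from LowCORT by 0.12, with an interval from -0.23 to 0.47. Sgk1 remained called under each of the other settings tried and without any single array. Without IntermediateCORT subject 19, which had the level of 9.70, the adjusted test that all 3 groups moved gave Sgk1 p = 0.0142, and without Sham subject 10 it gave 0.0302.

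**Figure D1:**
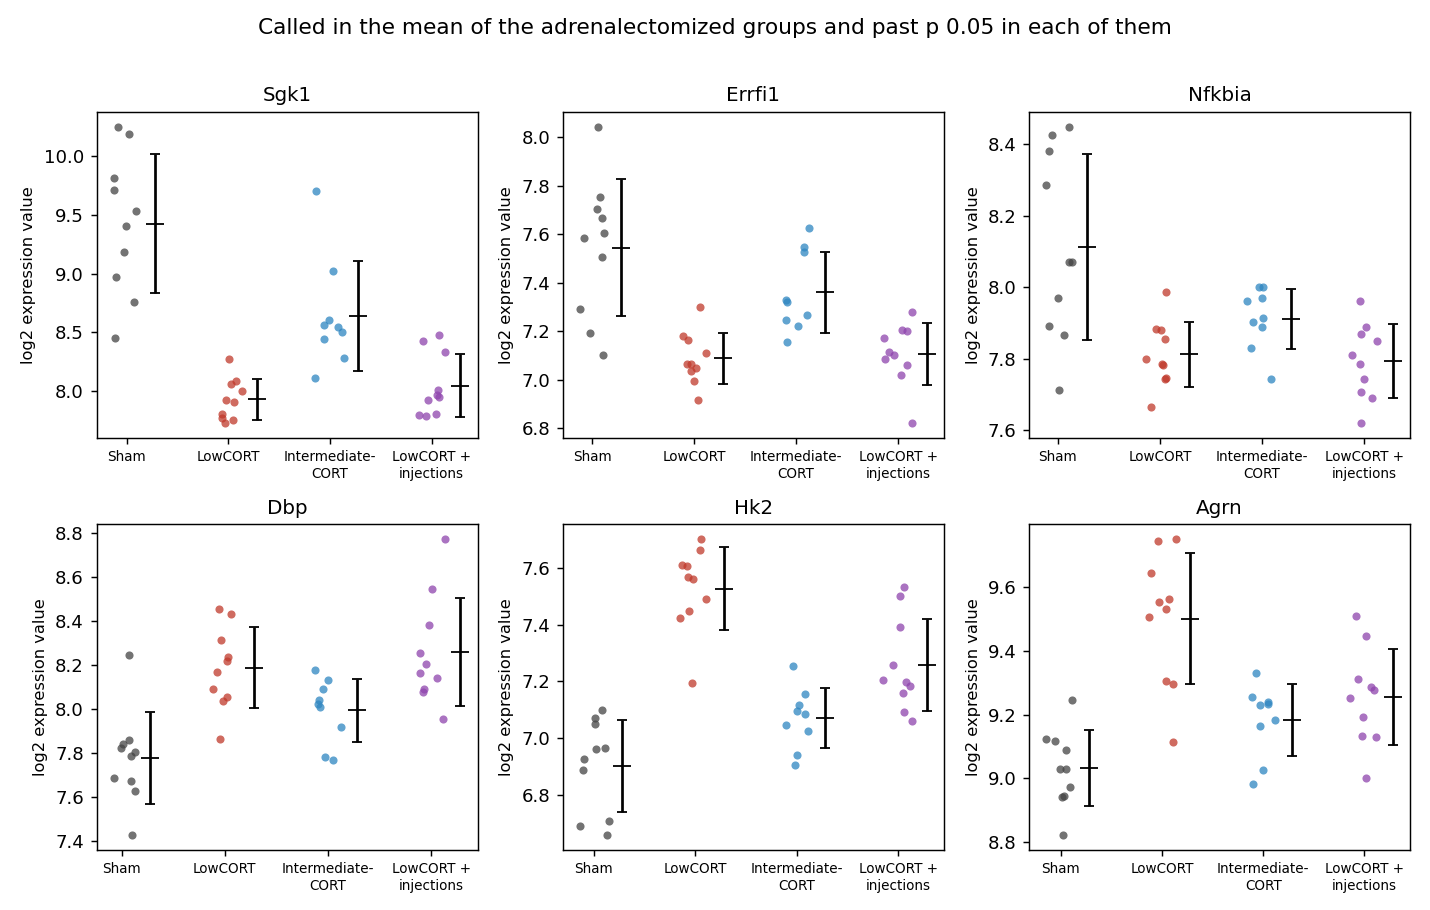
Log2 expression value of each array in the 4 groups for the 6 genes that passed in the mean contrast and had an unadjusted p under 0.05 in every adrenalectomized group; points are animals, and bars show the mean and SD (n = 10, 10, 9 and 10). For Sgk1, 22 of 29 adrenalectomized arrays lie below all Sham arrays, and for Hk2, 21 of 29 lie above them.

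The promoter of Sgk1 is shown because this gene had the largest mean difference. The sequence comes from RefSeq (GRCr8, chr1:24807182-24807481, minus strand) and spans 250 bases before to 50 bases after the annotated start, 5′ to 3′. No motif of those searched occurred in it, so no letter is capitalised.
Sgk1: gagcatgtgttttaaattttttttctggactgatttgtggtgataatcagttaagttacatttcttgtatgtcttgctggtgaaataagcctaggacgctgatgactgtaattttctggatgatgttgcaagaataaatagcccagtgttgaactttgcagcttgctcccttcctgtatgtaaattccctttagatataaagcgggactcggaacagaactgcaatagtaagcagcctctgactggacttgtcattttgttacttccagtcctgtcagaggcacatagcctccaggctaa
The window starts from 1 annotated transcript start, and no match in it says only that these letters are not there.

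Errfi1 ran from 7.10 to 8.04 in Sham (median 7.60), from 6.92 to 7.30 in LowCORT (7.07), from 7.16 to 7.63 in IntermediateCORT (7.32) and from 6.82 to 7.28 in the injected group (7.11). The groups overlapped, with 11 of 29 adrenalectomized arrays below all Sham arrays and 0 of these in IntermediateCORT. The mean difference was -0.36 (SE 0.07, adjusted p = 0.00491), made of -0.46, -0.19 and -0.44 in LowCORT, IntermediateCORT and the injected group. The moderated F test among these groups gave an adjusted p of 0.118. Another Errfi1 probe set, with a higher mean level, had a difference of -0.17 (adjusted p = 0.339).

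Nfkbia encodes IkB alpha, the protein that binds NF-kB and keeps it out of the nucleus. It ran from 7.71 to 8.45 in Sham (median 8.07), from 7.67 to 7.99 in LowCORT (7.79), from 7.74 to 8.00 in IntermediateCORT (7.91) and from 7.62 to 7.96 in the injected group (7.80). All 29 adrenalectomized arrays lay below the Sham mean of 8.11, but the groups overlapped and 4 lay below every Sham array. Sham subjects 1 to 4 lay between 8.29 and 8.45. Sham subjects 5 to 10 lay between 7.71 and 8.07, also below that mean. The Sham SD was 0.26, and those of the other groups were 0.08 to 0.10. Nfkbia differed from Sham by -0.30, -0.20 and -0.32, and the mean difference was -0.27 (SE 0.06, adjusted p = 0.0133). The intervals of the differences between adrenalectomized groups were -0.04 to 0.24 (IntermediateCORT minus LowCORT), -0.16 to 0.12 (injected minus LowCORT) and -0.26 to 0.02 (injected minus IntermediateCORT), and the F test gave an adjusted p of 0.633. A second, dimmer Nfkbia probe set had -0.35 (adjusted p = 0.0784).

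Dbp encodes the D-box binding protein, whose transcript cycles strongly over the day under the core clock. Its dimmer probe set ran from 7.43 to 8.25 in Sham (median 7.80), from 7.86 to 8.46 in LowCORT (8.19), from 7.77 to 8.18 in IntermediateCORT (8.02) and from 7.95 to 8.77 in the injected group (8.18). The groups overlapped, and 28 of 29 adrenalectomized arrays were above the Sham mean. The 2 Dbp probe sets rose by 0.37 (SE 0.07, adjusted p = 0.0098) and 0.34 (SE 0.07, adjusted p = 0.0139). The dimmer probe set had differences of 0.41, 0.22 and 0.48 and the brighter one 0.39, 0.14 and 0.48, in the order LowCORT, IntermediateCORT, injected. The brighter probe set missed an unadjusted p of 0.05 in IntermediateCORT (p = 0.117), and the F test among the 3 groups gave adjusted p-values of 0.26 and 0.0735.

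Hk2, the hexokinase that traps glucose in insulin-sensitive tissues, ran from 6.66 to 7.10 in Sham (median 6.94). It ran from 7.19 to 7.70 in LowCORT (7.57), from 6.90 to 7.25 in IntermediateCORT (7.08) and from 7.06 to 7.53 in the injected group (7.20). All 29 adrenalectomized arrays lay above the Sham mean, every LowCORT array lay above every Sham array, and 3 of 9 IntermediateCORT arrays did. Hk2 rose by 0.38 in the mean (SE 0.05, adjusted p = 5.46e-05), with 0.63, 0.17 and 0.36 in the 3 groups. These differed among themselves (F test, adjusted p = 1.9e-04), with IntermediateCORT 0.46 below LowCORT (interval -0.60 to -0.32, adjusted p = 5.26e-05). A brighter probe set of Hk2 pointed the other way, at -0.11 (adjusted p = 0.544), so the rise belongs to the dimmer probe set and not to both.

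Agrn encodes agrin, a heparan sulfate proteoglycan that organises synapses between nerve and muscle and lines brain vessels. It ran from 8.82 to 9.25 in Sham (median 9.03), from 9.12 to 9.75 in LowCORT (9.54), from 8.98 to 9.33 in IntermediateCORT (9.23) and from 9.00 to 9.51 in the injected group (9.27). The groups overlapped, with 17 of 29 arrays above all Sham arrays, 9 of them in LowCORT. Agrn rose by 0.28 in the mean (SE 0.06, adjusted p = 0.0111), with 0.47, 0.15 and 0.22 in the 3 groups, which differed from each other (F test, adjusted p = 0.0133). Its second probe set had 0.26 (adjusted p = 0.354).

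The other named genes that were called rose in the mean with differences of 0.01 to 0.11 in IntermediateCORT. Car4, a carbonic anhydrase anchored on the outer cell membrane, rose by 0.27 (SE 0.04, adjusted p = 7.71e-04) in its brighter probe set, with 0.53 (LowCORT), 0.09 (IntermediateCORT) and 0.20 (injected). Its dimmer probe set rose by 0.24 (adjusted p = 0.0128). Brighter Car4 values ran from 8.58 to 8.92 in Sham (median 8.78), from 9.09 to 9.53 in LowCORT (9.32), from 8.70 to 9.00 in IntermediateCORT (8.84) and from 8.70 to 9.17 in the injected group (8.93). LowCORT lay wholly above Sham, and the other 2 groups overlapped it.

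Ifitm3, an interferon-induced membrane protein that blocks entry of viruses, rose by 0.33 (SE 0.07, adjusted p = 0.0139), with 0.65, 0.10 and 0.24 in LowCORT, IntermediateCORT and the injected group. Sham ran from 7.59 to 8.25 (median 8.04), LowCORT from 8.23 to 8.78 (8.65), IntermediateCORT from 7.88 to 8.26 (8.08) and the injected group from 7.78 to 8.44 (8.31). All LowCORT arrays but subject 20 lay above Sham, and the other 2 groups overlapped it. S100a4, a calcium-binding protein of motile and connective tissue cells, rose by 0.38 (adjusted p = 0.0157) with 0.65, 0.11 and 0.37. Csrp2, a LIM-domain protein of smooth muscle, rose by 0.30 (adjusted p = 0.0188) with 0.57, 0.05 and 0.27.

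Tnfrsf11b, the decoy receptor osteoprotegerin, rose by 0.24 (adjusted p = 0.0133), yet its IntermediateCORT difference was 0.01 beside 0.39 in LowCORT and 0.31 in the injected group. Sham ran from 6.92 to 7.20 (median 7.03) and IntermediateCORT from 6.90 to 7.18 (7.05), so these overlapped fully, while LowCORT, at 7.29 to 7.54, lay above both. The injected group stood 0.30 above IntermediateCORT in Tnfrsf11b (interval 0.18 to 0.43, adjusted p = 0.0188). The gene therefore passed in the mean of 3 groups with a difference near 0 in 1 of them.

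Probe set AF030088UTR#1_at, which has no gene symbol in the table used here, had the opposite order. It rose by 0.65 in the mean (SE 0.13, adjusted p = 0.0128), with 1.10 in IntermediateCORT (adjusted p = 4.32e-04), 0.65 in LowCORT and 0.20 in the injected group (unadjusted p = 0.216). IntermediateCORT values ran from 8.24 to 9.14 and lay wholly above Sham, which ran from 7.28 to 8.00, while LowCORT ran from 7.72 to 8.91 and the injected group from 7.29 to 8.57. The unnamed probe set M31176mRNA#2_at fell by 0.46 (adjusted p = 0.0227), with -0.62 (LowCORT), -0.55 (IntermediateCORT) and -0.22 (injected).

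**Figure D2:**
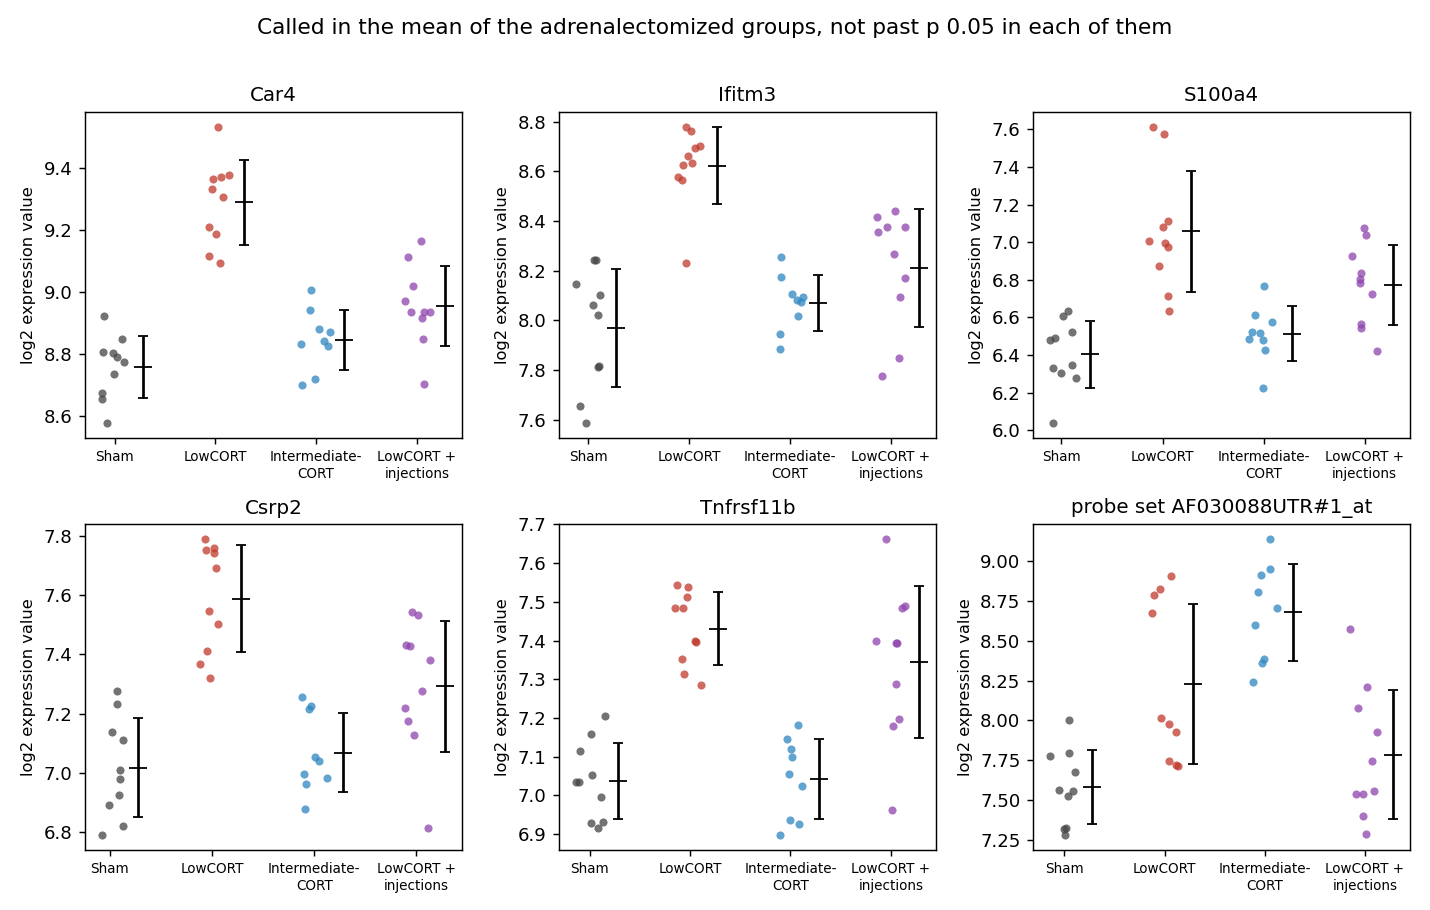
Log2 expression value of each array in the 4 groups for 5 genes and 1 unnamed probe set that passed in the mean contrast but had an unadjusted p of 0.05 or more in at least 1 adrenalectomized group; points are animals, bars the mean and SD (n = 10, 10, 9 and 10). For Tnfrsf11b, IntermediateCORT (6.90 to 7.18) lies on Sham (6.92 to 7.20), and for AF030088UTR#1_at it lies highest.

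Among the 3 adrenalectomized groups, 10 of the 15 called probe sets differed by the moderated F test, and this test called 107 of all 6118 (1.75%). The 5 not called in it were both Dbp probe sets, Errfi1, Nfkbia and M31176mRNA#2_at. LowCORT had the largest difference from Sham in 11 of the 15, beside 2646 of all 6118. IntermediateCORT had the smallest in 13, beside 2333 of all 6118. Taken alone against Sham, 15 of the 15 passed in LowCORT, where 103 of all probe sets did (1.68%). The injected group had 7 of the 15, where 14 of all passed (0.229%). IntermediateCORT had 1 of the 15, AF030088UTR#1_at, and it was the only probe set called in that comparison (0.0163%). At an unadjusted p under 0.05 the counts were 15 of 15 in LowCORT (13.6% of all), 13 of 15 in the injected group (5.95%) and 8 of 15 in IntermediateCORT (4.22%). These 3 comparisons share the Sham arrays with each other and with the mean contrast. The arrays of each adrenalectomized group also entered the mean contrast that chose the 15. Their counts beside the shares of all probe sets are therefore a description and not separate evidence.

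With LowCORT left out of the mean, so that only IntermediateCORT and the injected group stood against Sham, Sgk1 alone was called, at -1.08 (SE 0.15, adjusted p = 8.54e-05). Hk2 at 0.26, Dbp at 0.35 and AF030088UTR#1_at at 0.65 then had adjusted p-values of 0.0838, Errfi1 (-0.31) one of 0.0966 and Nfkbia (-0.26) one of 0.11. When the 29 arrays were pooled as 1 group, so that differences among the 3 groups entered the residual spread, 5 probe sets were called. Without IntermediateCORT, 70 were.

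The 27 probe sets with an unadjusted p under 0.05 and 1 sign in each group (0.441% of those tested) comprised 13 lower (0.212%) and 14 higher (0.229%). The p-values that chose these probe sets are given as a description. Only the 6 above passed adjustment in the mean. At the edge of the rule, the largest p was 0.0499 for Gad1, just inside, and 0.0504 for Trim63, just outside. In the mean contrast, Adipor2 stood just outside the threshold, with an adjusted p of 0.0507 beside 0.0227 for M31176mRNA#2_at just inside. Of the 27, 3 differed among the adrenalectomized groups by the F test (Sgk1, Agrn and Hk2). IntermediateCORT had the smallest difference in 14 of the 27, the injected group in 11 and LowCORT in 2. Over all 6118 probe sets tested these counts were 2333, 2292 and 1493.

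Among the lower genes, Gad1 and Tac1 were also on a list of interneuron markers, taken up below. Gad1, which makes GABA from glutamate, ran from 10.15 to 10.49 in Sham (median 10.35), from 9.80 to 10.26 in LowCORT (10.05), from 9.80 to 10.35 in IntermediateCORT (10.20) and from 9.98 to 10.44 in the injected group (10.16). The groups overlapped, with 18 of 29 adrenalectomized arrays below all Sham arrays. Its differences were -0.31, -0.20 and -0.14, and the mean difference of -0.22 had an adjusted p of 0.0825. Tac1, the precursor of substance P, had -0.26, -0.20 and -0.17 (mean -0.21, adjusted p = 0.287), and its dimmer probe set, below the filter, had -0.17 in the mean.

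Adipor2, a receptor of the fat-cell hormone adiponectin, had -0.37, -0.20 and -0.28 in LowCORT, IntermediateCORT and the injected group, and a mean difference of -0.29. It ran from 8.57 to 9.02 in Sham (median 8.87), from 8.31 to 8.76 in LowCORT (8.45), from 8.26 to 9.04 in IntermediateCORT (8.65) and from 8.22 to 8.85 in the injected group (8.62). The groups overlapped, and 28 of 29 adrenalectomized arrays were below the Sham mean. Its other tested probe set had -0.02 in the mean.

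Some of the lower probe sets had nearly equal differences in the 3 groups. Ptpro, a receptor-type tyrosine phosphatase, had -0.20, -0.19 and -0.19, and its 2 other probe sets had mean differences of -0.14 and -0.12. Intervals of the differences between adrenalectomized groups for Ptpro ran no farther than 0.16 from 0. Ssbp2, a single-stranded DNA binding protein, had -0.22, -0.20 and -0.17, and Adcy6, an adenylate cyclase, had -0.10, -0.11 and -0.11. Inpp5d, a lipid phosphatase of blood cells and microglia, had -0.17, -0.13 and -0.13.

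Snap25, a SNARE protein of synaptic vesicle release, had the second largest mean difference among the lower probe sets, -0.54, with -0.53, -0.52 and -0.57 and an adjusted p of 0.326. This probe set was close to the filter and varied widely, from 5.73 to 7.78 in Sham alone. The 3 brighter Snap25 probe sets had mean differences of -0.19, -0.31 and -0.34 and IntermediateCORT differences of -0.08, -0.03 and -0.11. The remaining lower genes were Hpcal1, a neuronal calcium sensor (-0.20), and Fstl1, a secreted glycoprotein (-0.15, with -0.16 in its second probe set).

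On the higher side, Tle1, a corepressor of transcription, had 0.35, 0.25 and 0.20 in LowCORT, IntermediateCORT and the injected group (mean 0.27, adjusted p = 0.0747). Grb14, an adaptor that dampens insulin receptor signalling, had 0.37, 0.19 and 0.19, and Cdh22, a cadherin, 0.44, 0.36 and 0.31. A second Cdh22 probe set had -0.02 in the mean. Tesc, a calcium-binding protein, had 0.23, 0.28 and 0.22. The RNA helicases Ddx39b and Ddx42 had mean differences of 0.28 and 0.20, and the brightest of the other 3 Ddx39b probe sets had 0.13.

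Sirt7, a deacylase of the sirtuin family, had 0.14, 0.17 and 0.16. Tnxa-ps1, a pseudogene related to tenascin X, had a mean of 0.17 in a probe set whose specificity against the parent gene was not tested, and its second probe set had 0.02. The 3 unnamed probe sets had mean differences of 0.13, 0.25 and 0.56, the largest being X05472cds#1_s_at. None of the genes in these paragraphs on the 27, other than the 6 called, passed adjustment in the mean.

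**Figure D3:**
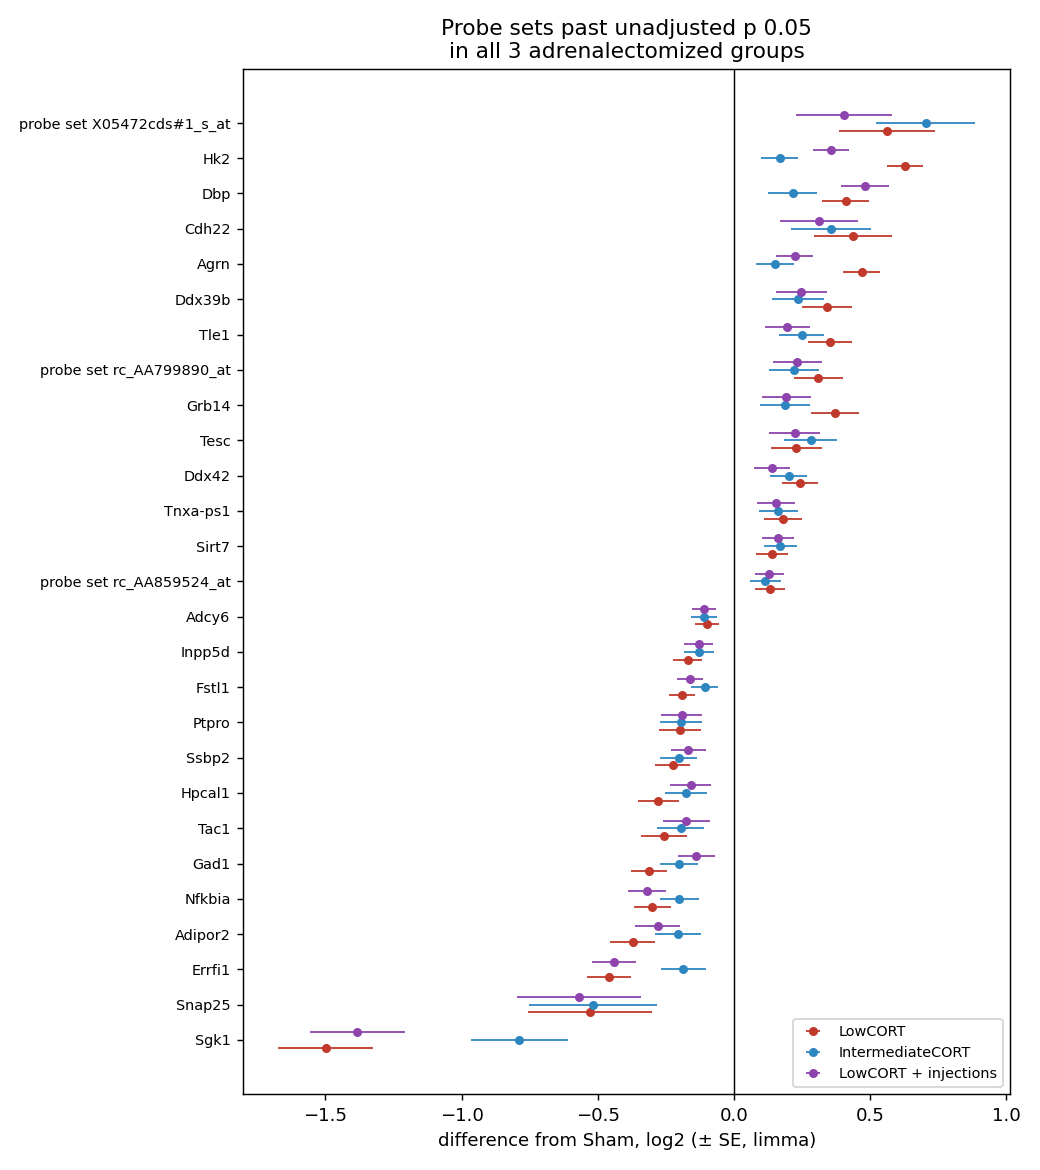
Difference from Sham on the log2 scale, with its SE from limma, in LowCORT, IntermediateCORT and the injected group for the 27 probe sets with an unadjusted p under 0.05 in each group. Points of 1 probe set lie close together for Ptpro (-0.20, -0.19 and -0.19) and apart for Sgk1 (-1.50, -0.79 and -1.38) and Hk2 (0.63, 0.17 and 0.36).

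The 27 probe sets were also sought with array quality taken into account. Without the 3 injected arrays whose Gapdh difference exceeded every Sham array, 11 probe sets met the rule in all 3 groups, of which 10 were among the 27: Sgk1, Errfi1, Nfkbia, Dbp, Hk2, Agrn, Adipor2, Fstl1, Ssbp2 and Ptpro. The mean contrast then called 20, including all 15. With the Gapdh and beta-actin 3' to 5' differences as covariates, 14 of the 27 met the rule, and the mean contrast called 39, again including all 15; Adipor2 then passed at -0.33 (adjusted p = 6.69e-04). Leaving out single arrays moved the 27 to between 17, without Sham subject 7, and 56, without Sham subject 10.

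Glucocorticoid-induced targets formed 1 of 36 gene lists, read with the brightest probe set of each gene. Of its 14 tested members, 2 fell (Sgk1 and Nfkbia), 0 rose and 12 did not pass. At an unadjusted p under 0.05 there were 7, all lower, which is 50% of the list beside 7.32% of the 3620 genes tested. The median mean difference of the list was -0.12, beside -0.00 over all genes, and its group medians were -0.21 (LowCORT), -0.06 (IntermediateCORT) and -0.11 (injected). The list was drawn up with earlier results of these arrays known, and so it is not independent evidence of a direction.

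Several targets had a difference nearer 0 in IntermediateCORT than in LowCORT. Il6r, the interleukin-6 receptor, had -0.47, -0.01 and -0.33 in the 3 groups (mean -0.27, adjusted p = 0.0643). Sult1a1, a sulfotransferase of phenols, had -0.98 (LowCORT), -0.13 (IntermediateCORT) and 0.03 (injected) (mean -0.36, adjusted p = 0.0954). Gpd1, the glycerol-3-phosphate dehydrogenase induced by glucocorticoids in glia, had -0.20, -0.08 and -0.20 (mean -0.16, adjusted p = 0.055). Klf9, a transcription factor induced by the hormone, had -0.31, -0.10 and -0.16 (adjusted p = 0.491). Its dimmer probe set had -0.21, 0.06 and -0.25 (adjusted p = 0.738).

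Averaged over the 14 targets, the log2 level ran from 8.74 to 9.15 in Sham (median 9.01), from 8.56 to 8.72 in LowCORT (8.66), from 8.71 to 9.07 in IntermediateCORT (8.88) and from 8.73 to 8.90 in the injected group (8.75). LowCORT lay wholly below Sham, and the other 2 groups overlapped it.

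The receptors themselves did not pass. Of 11 tested genes for corticosteroid receptors and steroid handling, 0 were called and 1 had an unadjusted p under 0.05. Nr3c1, the glucocorticoid receptor, had mean differences of 0.00 and -0.03 in its 2 tested probe sets (SE 0.03 and 0.04). Nr3c2, the mineralocorticoid receptor, had 0.15 and 0.23 (adjusted p = 0.756 and 0.511), and the larger value was made of 0.44 (LowCORT), 0.08 (IntermediateCORT) and 0.16 (injected). Hsd11b1, which regenerates corticosterone inside cells, had -0.05 (adjusted p = 0.984).

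Lists for the other adrenal hormones held 0 calls. Of 15 tested genes of the renin-angiotensin system and salt handling, 1 had an unadjusted p under 0.05 (6.67%, beside 7.32% of all genes tested). It was Agt, angiotensinogen, at -0.17 (adjusted p = 0.547), with -0.41 (LowCORT), -0.09 (IntermediateCORT) and -0.02 (injected). Of the 15 genes, 14 were negative (93.3%, beside 51.6% of all genes tested). The group medians of the list were -0.07 (LowCORT), -0.07 (IntermediateCORT) and 0.00 (injected). Ace, the angiotensin-converting enzyme, had -0.01. Of 14 adrenergic genes, 2 had an unadjusted p under 0.05 (14.3%), both lower, and the list median was -0.04.

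Interneuron markers had the lowest list median, -0.123, with group medians of -0.14, -0.12 and -0.08 in LowCORT, IntermediateCORT and the injected group. Of 16 tested members 0 were called, and 8 had an unadjusted p under 0.05 (50%, beside 7.32% of all genes tested), 7 lower and 1 higher. Beside Gad1 and Tac1, the peptide precursor Penk had -0.25 (adjusted p = 0.293), the calcium-binding protein Calb2 -0.17 (adjusted p = 0.0784), the vesicular GABA transporter Slc32a1 -0.14 and the serotonin receptor Htr3a -0.11. Gad2, the other GABA-making enzyme, had -0.05, Pvalb -0.07 and the neuropeptide Npy 0.04. Over the whole list the differences ran from -0.25 to 0.19. Of its members, 12 were negative (75%, beside 51.6% of all genes tested) and 4 positive. The mean log2 level of the 16 markers ran from 8.92 to 9.04 in Sham, from 8.73 to 8.97 in LowCORT, from 8.73 to 9.00 in IntermediateCORT and from 8.81 to 8.99 in the injected group, so the groups overlapped.

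Clock genes had 1 call among 9 tested members, Dbp. At an unadjusted p under 0.05 there were 3, all higher (33.3%, beside 7.32% of all genes tested). Per2, a core repressor of the clock, had 0.23 (adjusted p = 0.392) with 0.25, 0.32 and 0.13 in the 3 groups, and Bhlhe41, another repressor, had 0.19 (adjusted p = 0.542). Bhlhe40, the paralogous repressor, had -0.18 (adjusted p = 0.717), with -0.26, 0.02 and -0.30 in the 3 groups. Bmal1, the activator, had -0.07. All animals were killed within the same hours, and the labels give no hour for an animal.

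Interferon-response genes had 1 call among 14, Ifitm3, and a list median of 0.02. Of the 14, 13 were positive, beside 1751 of the 3620 genes tested. At an unadjusted p under 0.05 there were 4, all higher (28.6%, beside 7.32% of all genes tested). The mean level of the list ran from 7.78 to 7.89 in Sham and from 7.94 to 8.12 in LowCORT, wholly above Sham. IntermediateCORT (7.77 to 7.88) and the injected group (7.81 to 7.96) overlapped Sham. Irf7, a regulator of interferon genes, had 0.19 (adjusted p = 0.311) and Slfn5 0.26 (adjusted p = 0.077), the latter made of 0.60 (LowCORT), -0.07 (IntermediateCORT) and 0.25 (injected). Cholesterol synthesis had 0 calls among 14, 5 members with an unadjusted p under 0.05 that were all lower (35.7%, beside 7.32% of all genes tested), and a median of -0.09. In that list Sqle, squalene epoxidase, had -0.21 (adjusted p = 0.106), and Insig1, which restrains the sterol sensor, had -0.28 (LowCORT), 0.03 (IntermediateCORT) and -0.37 (injected).

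Markers of other cell types gave 2 calls, in genes already named. CA1 pyramidal markers had 0 calls among 6 and the highest list median, 0.10. All 6 were positive, beside 1751 of the 3620 genes tested. Their mean log2 level ran from 8.23 to 8.96 in Sham and from 8.71 to 8.96 in LowCORT. It ran from 8.48 to 8.94 in IntermediateCORT and from 8.43 to 9.05 in the injected group, so the groups overlapped. The largest difference in the list, 0.23, was that of Nr3c2, given above among the receptors. Of the 6, 2 had an unadjusted p under 0.05 (33.3%, beside 7.32% of all genes tested). Dentate gyrus markers had 0 among 6 (median -0.03), with 1 higher and 2 lower at that p (50%). CA3 and CA2 markers had 0 among 9 (median -0.05, 1 higher and 1 lower at that p). Neighbouring forebrain regions had 0 among 10 (median -0.04, 2 lower at that p). A part of dissection was not tested. S100a4 was the call among 15 fibroblast and meningeal markers (median 0.00), with 4 higher and 0 lower at that p (26.7%). Car4 was the call among 21 markers of endothelial cells and pericytes (median 0.00), with 2 higher and 1 lower (14.3%). Microglia and macrophage markers had 0 calls among 15 (median 0.03), choroid plexus and ependyma 0 among 6 (median -0.00) and astrocytes 0 among 18 (median -0.03). The mean level of the fibroblast list ran from 8.04 to 8.18 in Sham, 8.14 to 8.27 in LowCORT, 8.06 to 8.15 in IntermediateCORT and 8.11 to 8.26 in the injected group, with medians of 8.10, 8.19, 8.10 and 8.20. That of the endothelial list ran from 8.00 to 8.13, 8.08 to 8.23, 7.93 to 8.10 and 8.02 to 8.19, with medians of 8.05, 8.13, 8.04 and 8.11. The part of these cells in the rise of S100a4 and Car4 was not tested.

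**Figure D4:**
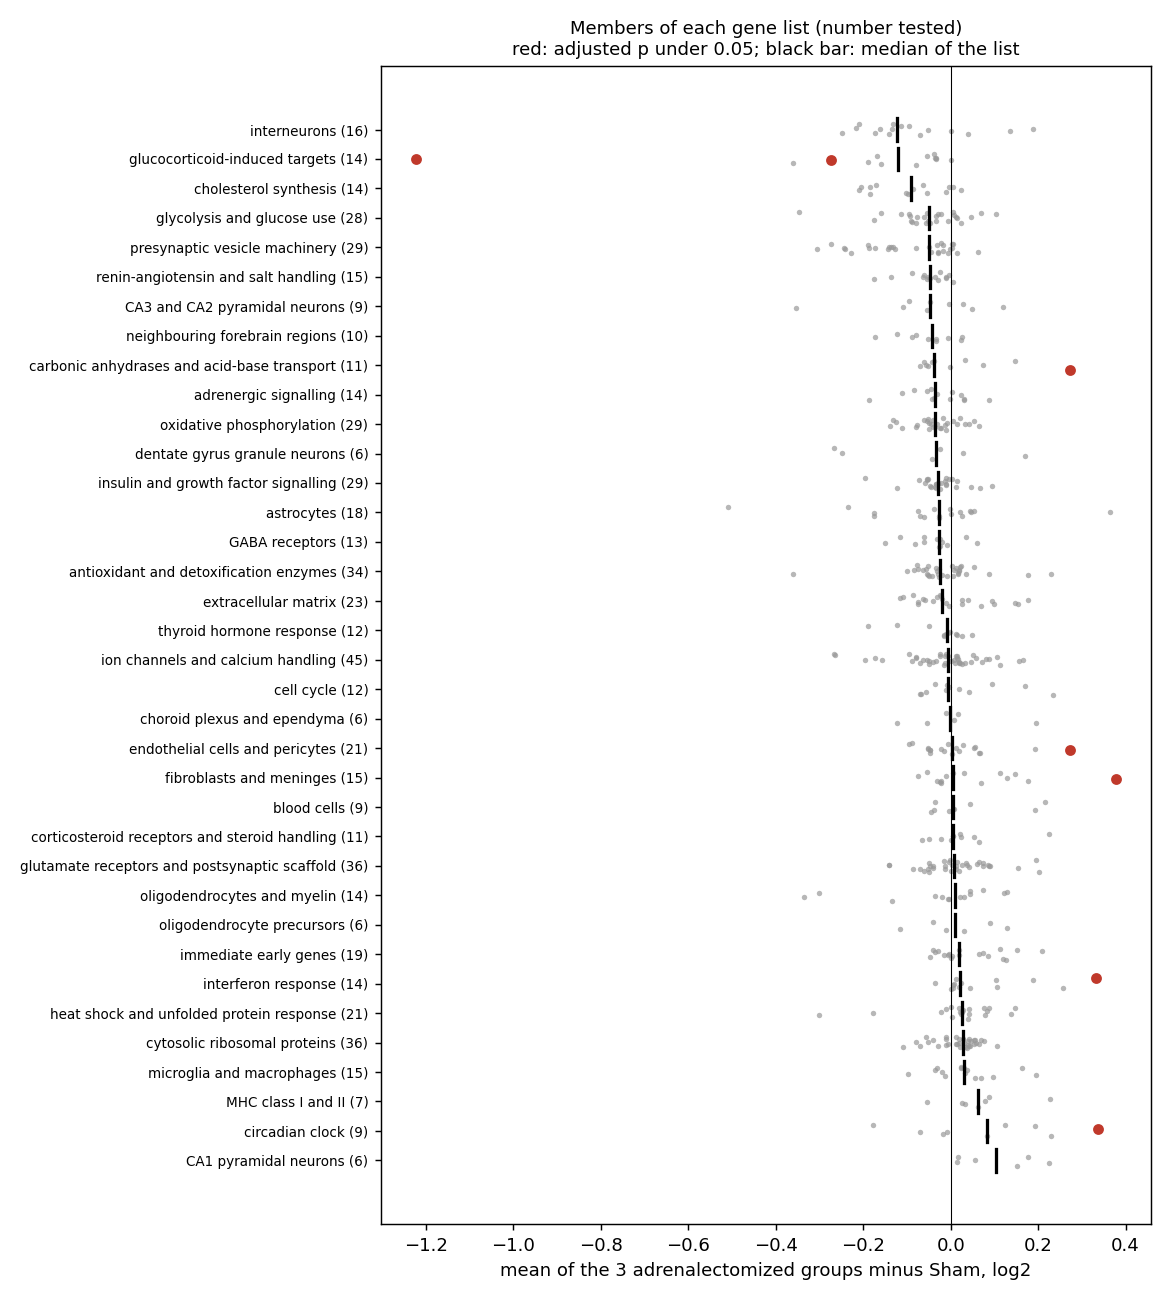
Mean difference of the 3 adrenalectomized groups from Sham on the log2 scale for each tested member of 36 gene lists, sorted by list median (black bars), with called members in red. Interneuron markers (median -0.123) and glucocorticoid-induced targets (median -0.12) lie lowest, and Sgk1 at -1.22 lies far from every other member.

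RefSeq promoter windows of 300 bases (GRCr8) were at hand for 24 of the 29 member genes. Both strands were searched for 6 motifs, and overlaps between motifs were allowed. The glucocorticoid receptor core AGAACA occurred in 3 of the 24 (12.5%), Ddx39b, Ifitm3 and Ptpro, beside 20.7% of 33469 promoters. The full palindromic glucocorticoid response element occurred in 0 of 24, beside 0.0149%, the cyclic AMP element TGACGTCA in 0, beside 1.83%, and the kappa B site of immunoglobulin enhancers in 0, beside 0.111%. The clock E-box CACGTG occurred in Tac1 (4.17%, beside 6.42%), and the interferon-stimulated response element core in Ifitm3 (4.17%, beside 3.92%). These windows hold only the region next to the start.

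The Ifitm3 window is shown because it holds a match to both the interferon and the glucocorticoid motif. It lies at chr1:205541709-205542008 on the minus strand of GRCr8 (RefSeq), 5′ to 3′, and capitals mark GAAAAGGAAA at bases 207 to 216 and AGAACA at bases 240 to 245, counted from the 5′ end.
Ifitm3: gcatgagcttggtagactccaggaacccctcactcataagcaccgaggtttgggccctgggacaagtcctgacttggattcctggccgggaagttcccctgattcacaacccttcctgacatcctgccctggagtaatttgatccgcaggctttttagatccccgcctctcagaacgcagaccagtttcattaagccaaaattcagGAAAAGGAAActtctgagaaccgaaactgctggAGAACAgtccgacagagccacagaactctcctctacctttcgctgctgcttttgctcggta
A match is a description of letters in this window, and binding there was not measured.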

How the data were processed

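Per the labels, total RNA from CA1 tissue was turned into biotin-labelled cRNA and hybridised to Affymetrix arrays, 1 per rat. The deposited table holds log2 expression values of 8799 probe sets made by the authors. Per the submitters' processing notes MAS5, RMA and R 2.7.1 were used, with the step that produced the table not given in the sources used here. Values, from 2.82 to 14.37, exceed what log10 (4.82) or the natural log (11.09) of a 16-bit maximum can reach. No further normalization was applied.

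Of 8740 probe sets other than 59 controls, 7006 carried 1 gene symbol, 308 several and 1426 none. Probe sets at or above the 30th percentile of mean level (6.28) were tested, 6118 in all. limma 3.58.1 in R 4.3.3 fitted 1 mean per group to all 39 arrays (35 residual degrees of freedom), after a check on simulated data. Tests are two-sided and adjusted by the Benjamini-Hochberg method over 6118, with 0.05 as threshold. The arrays hold no read depth, and their number limits precision. Labels give no batch.

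The groups, lists, tests and genes were chosen with earlier results of these data known. The rule for named genes took called probe sets by size and by difference among the groups, from each list the 4 members of smallest p at most, and fixed receptor, target and clock genes. The further genes of the 27 probe sets were chosen after their values were seen. Slc32a1, Htr3a, Gad2, Pvalb, Npy and Bmal1 were named as further members of their lists and not by this rule. Other settings tried were no filter or a 50th percentile filter, array weights, 3' to 5' covariates, quantile normalization, median centring, trended robust moderation, 1 probe set per gene, and leaving out each group or array. A further 2 were added after seeing the data: subject order within a group as a covariate and the 3 injected arrays of high Gapdh difference left out.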

Additional observations from a re-analysis of the deposited data

Results flagged for a closer look

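In the 36 probe sets of the report, 144 pairs of a probe set and a group were looked at for an array far from the rest of its group, and 6 (4.17%) were found, where chance gives about 1 in 20. In Sham, subject 6 stood apart in Dbp at a log2 value of 8.245 (nearest 7.857) and in Fstl1 at 7.916 (nearest 8.094), and subject 5 in Adcy6 at 7.601 (nearest 7.349). In LowCORT, subject 20 stood apart in Ifitm3 at 8.231 (nearest 8.565). In the injected group, subject 35 stood apart in Tesc at 10.641 (nearest 10.166) and in Inpp5d at 6.4 (nearest 6.698).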

How the results depend on the processing

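The mean contrast called 15 probe sets, 11 higher and 4 lower. It called 5 (2 higher) with the 29 arrays as 1 group, 1 (0 higher, 1 lower) without LowCORT, 70 (39 and 31) without IntermediateCORT and 27 (11 lower) without the injected group. Array weights gave 33 (20 higher, 13 lower), the 3' to 5' covariates 39 (22 and 17) and subject order as a covariate 51 (32 and 19). The 50th percentile filter and 1 probe set per gene, which test fewer probe sets, each called 7 higher, and 7 were lower without the 3 injected arrays of high Gapdh difference. All 15 were called under the covariates, quantile normalization, median centring, trended robust moderation, subject order and no filter. Array weights kept 14 of the 15. Without single arrays the count ran from 11 (without Sham subject 1) to 21, with 7 to 15 higher and 3 to 9 lower. Only 9 of the 15 were still called without Sham subject 1. The 27 probe sets became 46 with subject order as a covariate and 11 without the 3 injected arrays, and ran from 17 to 56 without single arrays. Array weights gave 39, with 15 of the 27 among them. The test that all 3 groups moved called 0 in each setting but 0 to 1 without single arrays. Differences among the adrenalectomized groups, 107 probe sets, became 306 with array weights and 169 with subject order, and ran from 69 (without IntermediateCORT subject 16) to 133 without single arrays. The causes were not tested. For the named genes, in the settings other than single arrays left out, 2109 values were counted as unchanged, 71 newly passed and 28 no longer passed. Of the called probe sets, 0 reversed. A change of sign in a probe set not called in the main setting was counted as unchanged. No paired analysis was possible because each subject number belongs to a single animal.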
